A study of Mus musculus with 2 samples.

Results

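Cluster 4 is 1 of the 12 groups into which the authors sorted single cells of irradiated mouse colon epithelium, and it holds 324 of the 3082 cells. Its members are the cells that the authors gave that number, and they are described here through the authors' average of each gene over those cells, beside the same average in the other 11 clusters. Clusters 1 (398 cells) and 8 (197 cells) are the closest in profile: Spearman's rank correlation with cluster 4, across the 3276 genes at 1 or more per 10000 in any cluster, was 0.903 for cluster 1 and 0.906 for cluster 8, followed by 0.821 for cluster 3.

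The cells were colon epithelium, the strain C57BL/6 and the genotype wild type, and the mice had been irradiated 2 weeks earlier. The series title sets them in work on grafts of colonoids, which are organoids grown from colon crypts, used to regenerate the rectum after radiation injury. The 2 libraries form 1 group, and their titles share 1 sample code. Graft-derived cells are not marked in the labels, an unirradiated group was not analysed here, and the averages pool both libraries, so there is no replicate and no test. Levels are mean UMIs (counted RNA molecules) per 10000 UMIs of a cell. Where 3 levels follow each other without clusters, they are those of clusters 4, 1 and 8 in that order. Each interval is an exact Poisson 95% interval that covers counting error only.

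The surface of the colon is lined by absorptive colonocytes, which are born in the crypts, move upward, switch on Krt20 and the transporters of salt and water, and are shed. After injury the epithelium passes through repair states in which cells carry genes of the fetal gut, among them Ly6a (Sca-1) and annexins, and Clu marks cells seen during recovery from radiation. Surface cells also defend the barrier: the oxidase Duox2 and its partner Duoxa2 release hydrogen peroxide at the cell surface, and interferons switch on antiviral genes through factors that include Stat2, Irf9 and Irf7, which bind a promoter element built of GAAA repeats.

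The sequences below are the 120 bases upstream of the start site of 3 interferon-stimulated genes described later: Ifit1 and Ifit1bl1, because they were among the genes that led cluster 4, and Isg15, because it was among the 10 genes highest against cluster 1. They are RefSeq promoters of build GRCm38.p6, 5′ to 3′ on the gene's strand, and capitals mark GAAANNGAAA or its reverse complement TTTCNNTTTC.
Ifit1, chr19:34640769-34640888, plus strand: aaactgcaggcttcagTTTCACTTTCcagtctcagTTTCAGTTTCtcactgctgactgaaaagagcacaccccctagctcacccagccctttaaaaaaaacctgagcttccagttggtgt
Ifit1bl1, chr19:34601969-34602088, minus strand: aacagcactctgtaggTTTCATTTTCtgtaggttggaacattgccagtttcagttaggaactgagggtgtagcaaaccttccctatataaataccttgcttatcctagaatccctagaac
Isg15, chr4:156200819-156200938, minus strand: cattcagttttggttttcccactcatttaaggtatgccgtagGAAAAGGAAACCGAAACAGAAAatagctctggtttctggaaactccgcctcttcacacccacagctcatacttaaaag
In Ifit1 the matches began 104 and 85 bases before the start site, in Ifit1bl1 104 bases before it, and in Isg15 3 overlapping matches began 78, 72 and 66 bases before it. Ifit1bl1 has a second listed start site, whose sequence is not shown, with a match that began 23 bases before it. In windows from 250 bases before to 50 after a start site, on both strands, the motif was present in 3.44% of all 32851 promoters and 3.99% of the 27025 genes with a promoter. Of the 43 interferon-stimulated genes with a promoter in the table, 24 held it (55.8%). Of the 22 leading genes with a promoter, 3 held it (Ddx60, Ifit1bl1 and Ifit1), as did 0 of the 4 marker genes with one. A match is a run of letters, not a shown binding site.

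The label given to cluster 4 rests on 7 genes, all of which had their highest average there. Ly6a stood at 27.3 per 10000 in cluster 4 (26.2 to 28.4), 10.7 in cluster 1 and 9.56 in cluster 8, and between 0.718 and 7.31 in the others. Clu, a secreted chaperone, stood at 23.6 per 10000 (22.5 to 24.6), with 14.5 in cluster 1 but 0.564 in cluster 8. The 2 genes thus differ in their partner: Ly6a was higher than in both neighbours, whereas Clu was shared with cluster 1 and nearly absent from cluster 8. Krt20, the keratin of surface cells, showed the opposite sharing, with 12.2 in cluster 4 (11.5 to 13.01), 10.8 in cluster 8 (10.01 to 11.6), 8.96 and 7.19 in clusters 11 and 9, and 2.28 in cluster 1. The intervals of clusters 4 and 8 overlapped at their ends for Krt20, and whether its first rank exceeds counting error was not tested. As these genes were among those that the authors clustered, and the list was chosen with results in view, their levels describe cluster 4 and test nothing.

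The word colonocyte holds in part. Of 20 colonocyte genes, 9 were at least 2-fold higher in cluster 4 than in cluster 1 and 9 at least 2-fold lower than in cluster 8, against 2.12% and 1.57% of all genes. Whether the cells are there because of injury cannot be read from these libraries, since both came from irradiated mice. The cells are therefore called cluster 4 throughout.

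**Figure D1:**
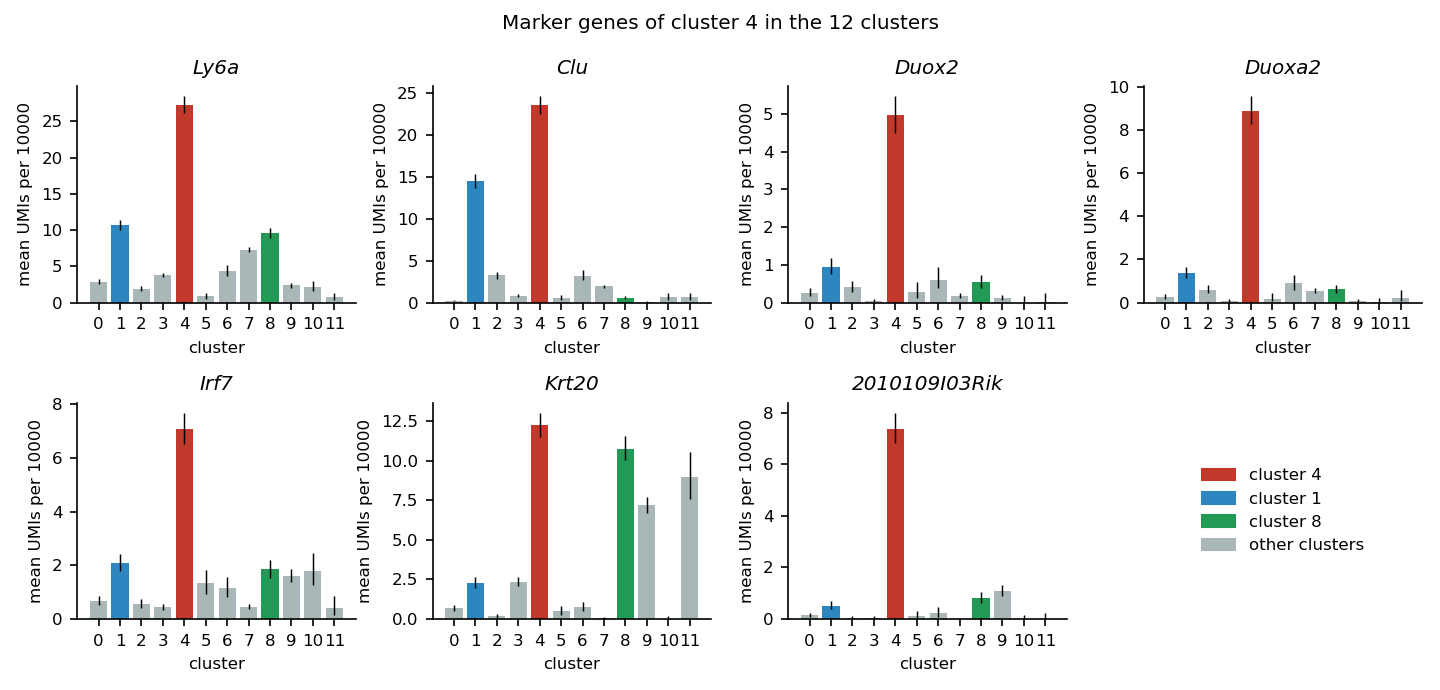
Mean UMIs per 10000 (y axis) of the 7 marker genes in clusters 0 to 11 (x axis); bars are the authors' averages and lines exact Poisson 95% intervals for counting error. Cluster 4 (red) is highest in each panel, with cluster 1 (blue) near it for Clu (14.5 against 23.6) and cluster 8 (green) near it for Krt20 (10.8 against 12.2).

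The cells of cluster 4 were uneven in depth. UMI totals could be read for 265 of them (81.8%), with quartiles of 3319, 10677 and 16335 UMIs and a range from 833 to 44541. Of these 265, 86 lay below 5000 UMIs and 141 at or above 10000, whereas the median was 15281 in cluster 1 and 6504 in cluster 8. Mitochondrially encoded RNA made up 6.55% of cluster 4, 6.88% of cluster 1 and 4.58% of cluster 8, and the nuclear RNA Malat1 4.76%, 3.79% and 1.96%. Ribosomal protein genes made up 5.87%, 15.2% and 4.01%. A gene at 0 in cluster 4 had no counted UMI, which still allows an expected count of up to 3 UMIs, or 0.0365 per 10000. The part of depth in the results below was not tested.

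Most marker lists of other cells were low. The epithelial adhesion gene Epcam was at 37.6, the highest of the 12 clusters, and the stem cell gene Lgr5 was listed at 0. The 14 measured crypt and stem cell genes summed to 5.70, against 3.70 in cluster 1, 2.13 in cluster 8 and 1.18 to 11.2 over the other clusters, with 2 of 14 at 0. Of them, 2 were at least 2-fold over cluster 1 (Prom1 and Ephb3) and 4 over cluster 8, against 2.12% and 2.98% of all genes, with 0 below either. Only 1 of the 14, Prom1, could be compared at 1 or more per 10000. Prom1, at 3.95, was highest in cluster 4. Of 22 cell cycle genes, 19 were at least 2-fold below the mean of the other 11 clusters and 0 above it, against 7.29% of all 17044 genes below and 3.26% above (27.6% and 9.92% of the genes that reach 1 per 10000 in any cluster). The 20 goblet cell genes summed to 15.7 per 10000, the lowest sum of any cluster, with the mucin Muc2 at 0.753 against 79.2 in cluster 0. That last rank rests on 1 gene in cluster 8, where Klk1 gave 13.7 of a sum of 20.7 (1.28 in cluster 4). Of the 20 genes, 8 were at least 2-fold over cluster 8 and 2 below, against 2.98% and 1.57% of all genes. Compared with cluster 1, 1 was over and 2 below (2.12% and 2.38%). The 12 neutrophil genes summed to 6.52, against 1.40 to 1113 in the other clusters, and 5.66 of it was Ly6g, which was also carried by cluster 8 at 8.19. Apart from Ly6g, the defining neutrophil genes were at or near 0: Csf3r was listed at 0, Retnlg stood at 0.00545 and S100a9 at 0.171 against 442 in cluster 5. The macrophage and dendritic cell genes summed to 0.708 with 7 of 17 at 0, the T and NK cell genes to 0.0497 with 7 of 11 at 0, the mast cell genes to 0.0970 with 3 of 8 at 0, and the endothelial genes to 0.00862 with 3 of 6 at 0. The enteroendocrine genes summed to 0.360 with 5 of 17 at 0, against 1374 in cluster 11, the tuft cell genes to 0.0485 with 6 of 11 at 0, and the B and plasma cell genes to 1.29 with 4 of 9 at 0.

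In cluster 4, 1433 genes reached 1 per 10000, and 29 of them (2.02%) were at least 2-fold above every other cluster, on levels to which a pseudocount of 0.1 was added. Their number follows from the rule and is given as a description. They are called leading genes below, and every fold that follows has that pseudocount. The next-highest cluster was cluster 1 for 11 of them and cluster 8 for 9. On the gene lists, 4 of the 29 were interferon-stimulated, 2 belonged to the oxidase list and 2 to the cytoskeleton and adhesion list. All 29 averages came from more than 1 cell. At the edge of the rule, Egln3 was just inside, at 2.03-fold over cluster 5, and Clca4a just outside, at 1.98-fold over cluster 9.

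Among them were the 2 genes of the hydrogen peroxide system. Duoxa2, the factor that brings the oxidase to the cell surface, was at 8.89 (8.26 to 9.56), whereas clusters 1, 6 and 8 had 1.39, 0.890 and 0.620. The oxidase Duox2 stood at 4.96 (4.49 to 5.47), against 0.949, 0.608 and 0.536 in the same clusters. Both were lower still in clusters 3 and 9, at 0.0817 and 0.0797 for Duoxa2 and 0.0350 and 0.122 for Duox2. In GRCm38 they lie head to head on chromosome 2, Duox2 at 122279247 to 122298449 on the minus strand and Duoxa2 at 122298900 to 122302885 on the plus strand, with 451 bases between them. The folds over cluster 1, the next highest for both, were 6.03 for Duoxa2 and 4.82 for Duox2.

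The other oxidase genes had mixed levels. Of the list's 15 measured genes, 5 were highest in cluster 4, 3 were at least 2-fold above cluster 1 and 0 below it, against 2.12% and 2.38% of all genes. Duox2 and Duoxa2, which are marker genes of the label, were among the 3. The count therefore reflects in part the choice of label, and it is no test of the list. The third gene was Nos2, the inducible nitric oxide synthase, at 0.864 against 0.128 in cluster 1 and 0.00289 in cluster 8. Nos2 was thus below the level minimum of 1. Cyba, a subunit of the NADPH oxidases, was at 7.59 beside 7.54 in cluster 1, and Noxo1, the organiser of the colonic oxidase Nox1, at 2.23 and 2.40. Noxa1, the activator of Nox1, was lower in cluster 4 (0.321) than in cluster 1 (0.729).

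The 3 leading genes of the Ly6 region lay near each other on chromosome 15, between 74762056 and 74998031. Ly6d, a lipid-anchored surface protein, was at 2.40 (2.08 to 2.76), with 0.225 in cluster 7 as the next highest, 0.186 in cluster 1 and 0.0211 in cluster 8. Its fold over the next cluster, 7.71, was the largest of all leading genes. 2010109I03Rik was at 7.38 (6.81 to 7.996), while clusters 9, 8 and 1 had 1.09, 0.816 and 0.519. The third was Ly6a, at the levels given above. Ly6e of the same family was at 11.8 in cluster 4 and 12.6 in cluster 0, though 0.655 in cluster 8.

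Laminins anchor epithelia to the basement membrane, and the chain genes Lamb3 and Lama3 were leading genes. Lamb3 was at 3.72 (3.31 to 4.16), 1.46 and 1.58 in clusters 4, 1 and 8. Lama3 was at 1.19 (0.969 to 1.45), 0.372 and 0.534. For both genes the interval in cluster 4 lay above those in clusters 1 and 8. Integrin chains that bind laminin were also highest or near it: Itgb4 stood at 2.31, against 1.61 in cluster 8, and Itga3 at 1.25, against 0.664, while Itga6 at 1.03 was below cluster 6 at 1.56. These genes were grouped after their values were seen.

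Among the other leading genes, Ubd (FAT10), a ubiquitin-like protein induced by interferon-gamma and tumour necrosis factor, was at 1.95 against 0.264 in cluster 1 and 0.00850 in cluster 8. Trim40, of the ubiquitin ligase family and 303769 bases from Ubd on chromosome 17, was at 1.67 against 0.300 and 0.239. Clca4b, of the calcium-activated chloride channel regulators, was at 5.25 against 0.960 in cluster 1 and 0.104 in cluster 8. These 3 were all 4.43-fold or more above their next cluster, which was cluster 1 for each. Tnip3, which restrains NF-kappa B signalling, was at 1.89, Cd55, which shields cells from complement, at 2.19, and Egln3, an oxygen-sensing hydroxylase, at 1.84. Bglap3, of the osteocalcin family, was at 3.38 and the tropomyosin Tpm2 at 1.80. Further members were Gprc5a, an orphan receptor, Camk2n1, an inhibitor of a calcium-dependent kinase, Rnd3, a small GTPase, the ubiquitin ligase Rnf128, Spats2l, AI661453 and Sprr1a, at levels between 1.37 and 5.17. Clca4a and Clca4b are close paralogs, as are Ifit1 and Ifit1bl1, and how reads that match several such genes were counted is not given in the sources used here.

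Several leading genes were interferon-stimulated. Ifit1bl1 stood at 6.54 per 10000 (5.99 to 7.11), with 2.23 in cluster 8 but 0.678 in cluster 1. Ifit1, which binds foreign RNA, stood at 1.54 (1.28 to 1.83), 0.246 and 0.122, with 0.482 in cluster 5 as its next highest. The 2 genes lie 38915 bases apart on chromosome 19 and had different neighbours: cluster 8 carried Ifit1bl1 at an intermediate level and Ifit1 at a low one. Isg15, a ubiquitin-like modifier, stood at 5.43 (4.94 to 5.96), 6.71-fold over cluster 1, but reached 12.6 in cluster 5 and 3.96 in cluster 10. Oasl1 (1.503), Samd9l (1.12) and Ddx60 (1.05) were also leading genes.

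All 56 genes of the interferon-stimulated list were detected in cluster 4, and 29 had their highest average there, against 7.01% of all genes. At least 2-fold over cluster 1 were 27 and below it 0; over cluster 8 there were 35 and below it 0, against 2.98% of all genes higher and 1.57% lower. Most of these genes were rare, and only 12 could be compared at 1 or more per 10000. Of those 12, 8 were at least 2-fold higher than in cluster 1 and 10 than in cluster 8, where 10.1% and 9.70% of all genes at that level were. Of the 20 that reach 1 per 10000 in any cluster, 8 were highest in cluster 4 and 12 at least 2-fold over the mean of the rest, where 9.8% and 9.92% of all genes at that level were. The list median was 1.21 log2 units over that mean, and the median over all genes was -0.10. With a pseudocount of 1 the count over the mean of the others was 6 instead of 35. The summed list stood at 56.5 in cluster 4, 59.0 in cluster 5, 23.1 in cluster 1 and 17.3 in cluster 8. Clusters 5 and 10, which share part of this list, carry the neutrophil genes (1113) and the macrophage genes (221) whose sums in cluster 4 were 6.52 and 0.708.

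**Figure D2:**
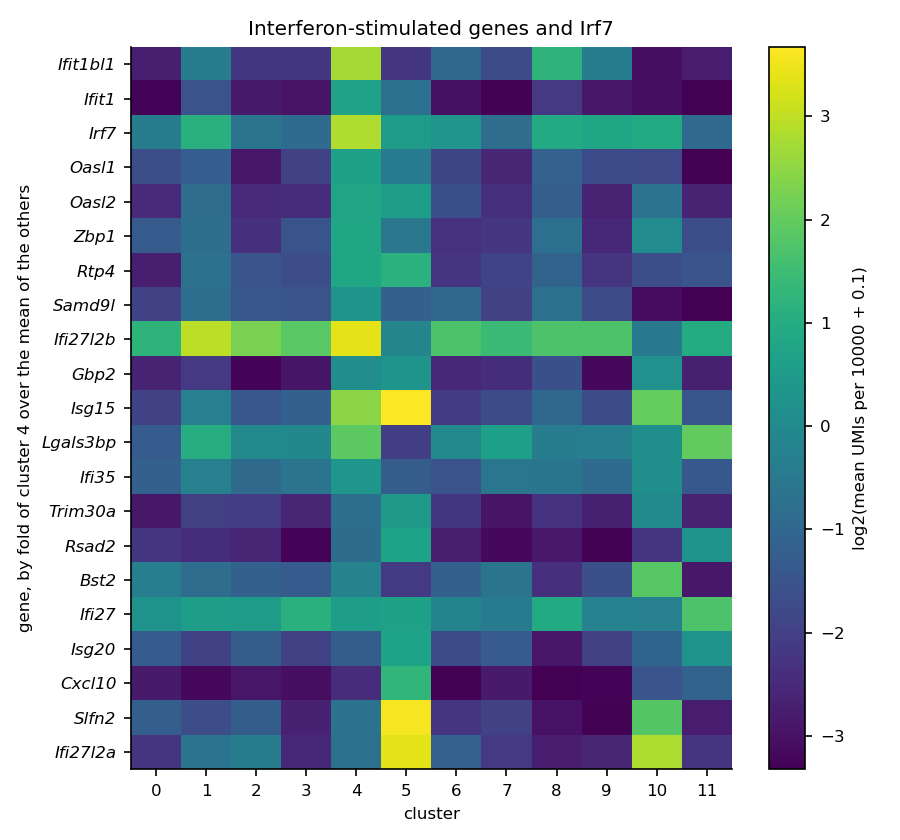
Interferon-stimulated genes that reach 1 per 10000 in any cluster, with Irf7, as log2(mean UMIs per 10000 + 0.1) (colour) in clusters 0 to 11 (x axis); rows run from the largest to the smallest fold over the mean of the rest. The upper rows, from Ifit1bl1 (6.54 per 10000) to Samd9l (1.12), are brightest in cluster 4 except Rtp4, and the lower rows, such as Slfn2 and Ifi27l2a, in cluster 5.

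Of the factors that carry the interferon signal, Irf7 was the leading gene. It stood at 7.09 (6.52 to 7.69), 3.29-fold over cluster 1 at 2.08, and at 1.85 in cluster 8. Stat2 was at 0.487 against 0.234 and 0.129, while Irf9, at 0.347, was below its 0.395 in cluster 1. The receptor chains differed less: Ifngr2 was at 2.34, 1.94 and 1.85, and Ifngr1 at 3.41, below 6.30 in cluster 8. Of the 27 measured regulators, 2 were at least 2-fold over cluster 1 and 3 over cluster 8, against 2.12% and 2.98% of all genes, and 0 were below either. At 1 or more per 10000, 2 of 6 were over cluster 1 and 2 of 6 over cluster 8, against 10.1% and 9.70%. Irf7, a marker gene of the label, was among them.

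Of 27 measured genes of antigen presentation, 9 were at least 2-fold over cluster 1 and 5 over cluster 8, against 2.12% and 2.98% of all genes, and 0 were below either. Against the mean of the other clusters 5 were higher and 7 lower (3.26% and 7.29% of all genes). Of the 17 that reach 1 per 10000 in any cluster, 4 were higher and 7 lower, against 9.92% and 27.6% of genes at that level. The peptide transporter Tap1 was at 0.756, 0.238 and 0.275. The immunoproteasome subunit Psmb8 was at 3.19, 1.35 and 1.71. The class I chain H2-D1 was at 21.0, 10.2 and 12.2, whereas H2-K1, at 14.8, was below its 16.4 in cluster 8. Cd74, the class II chaperone, was at 1.60, 0.541 and 0.129, against 216 in cluster 10, which holds the macrophage and dendritic cell genes.

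Repair genes summed to 301 in cluster 4, 192 in cluster 1 and 194 in cluster 8. Most of each sum was 1 gene, S100a6, at 158, 104 and 142 in clusters 4, 1 and 8. Of 25 measured genes of this list, 11 were highest in cluster 4 (7.01% of all genes were), 14 were at least 2-fold over cluster 8 (2.98%) and 3 over cluster 1 (2.12%), and 0 were below either. At 1 or more per 10000, 11 of 15 were over cluster 8, against 9.70% of genes at that level. Over cluster 1 were 2 of 15, near the background of 10.1%. Ly6a and Clu of this list are also marker genes of the label. Of the annexin genes, Anxa1 was at 6.91, 4.20 and 1.78 in clusters 4, 1 and 8, Anxa2 at 20.8, 12.2 and 10.8, and Anxa8 at 3.20, 1.96 and 0.998. The growth factor Areg was at 5.58, 4.03 and 1.82, and Hbegf, another ligand of the same receptor, at 4.002, 4.03 and 1.38. Krt7, a keratin of simple duct epithelia, was at 4.59, 2.98 and 0.265. Of the list, 2 were leading genes, and Ly6a, 1 of them, was at the levels given above.

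Against cluster 1, 1685 genes reached 1 per 10000 in either cluster. Of these, 171 were at least 2-fold higher in cluster 4 (10.1%) and 165 lower (9.79%). Besides the genes above, Saa1, an acute phase protein of the gut lining, was at 28.6 in cluster 4 and 4.76 in cluster 1, but at 168 in cluster 8. Prss30, a serine protease, was at 6.63, 1.04 and 6.99 in clusters 4, 1 and 8. In that direction the difference thus holds both genes that lead cluster 4 and genes shared with cluster 8.

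Ribosomal protein genes made up 74 of the 165 genes lower than in cluster 1, and of the 82 such genes compared 0 were higher. Rpl3 was at 3.09, 14.6 and 1.12 in clusters 4, 1 and 8. The chaperonin partner Hspe1 was at 0.620, 2.65 and 0.378, and the nucleotide kinase Nme1 at 0.252, 1.72 and 0.155. Gpx2, the glutathione peroxidase of crypt epithelium, was at 2.22, 11.2 and 0.490, and the glutathione transferase Gstm1 at 0.170 (0.0927 to 0.285), 1.39 and 0.148. When the averages were rescaled to the median ratio of the genes, which moved the median fold over cluster 1 by 0.33 log2 units, the split was 263 higher and 103 lower, or 71.9% of the calls higher in place of 50.9%. The balance between higher and lower genes therefore depends on the scale. Without ribosomal protein genes, mitochondrial genes and Malat1, 44.1% of the calls were higher.

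Against cluster 8, 1649 genes were compared, of which 160 were at least 2-fold higher in cluster 4 (9.70%) and 118 lower (7.16%). Clu was the highest by fold, at 35.6-fold. Plet1, a surface protein of gut progenitors and regenerating epithelium, was at 3.80, 0.984 and 0.0867 in clusters 4, 1 and 8. Aldh1a3, which makes retinoic acid, was at 2.12, 1.35 and 0.0260, and the protease inhibitor gene Wfdc18 at 10.3, 11.97 and 0.390. Cldn4, a claudin of tight junctions, was at 3.81, 0.777 and 0.311, though 4.76 in cluster 11. Of these, Clu, Aldh1a3 and Wfdc18 were within 2-fold of their level in cluster 1.

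Several transport genes were lower in cluster 4 than in cluster 8. Car4, the carbonic anhydrase of the colonocyte surface, was at 1.36 per 10000 (1.12 to 1.63), with 1.24 in cluster 1 but 38.1 in cluster 8. Slc26a3, the chloride and bicarbonate exchanger, was at 1.78, 1.70 and 20.7. Slc20a1, a phosphate transporter, was at 0.573, 0.750 and 9.40, Slc37a2 at 0.202, 0.177 and 6.43, and Fxyd4, a regulator of the sodium pump, at 2.02, 1.60 and 21.9. For these genes cluster 4 was nearer to cluster 1 than to cluster 8. The water channel Aqp8 and the carbonic anhydrase Car1 lay between, at 2.49 and 7.73 in cluster 4, 1.04 and 4.58 in cluster 1 and 23.3 and 74.4 in cluster 8. Of 43 measured transport genes, 17 were at least 2-fold lower than in cluster 8 and 8 higher, against 1.57% and 2.98% of all genes. Compared with cluster 1, 9 were higher and 6 lower, against 2.12% and 2.38%. At 1 or more per 10000, 8 of 21 were higher and 1 lower than in cluster 1, against 10.1% and 9.79% of genes at that level. Most of the 6 lower genes were thus below that level. Of 25 compared with cluster 8 at that level, 16 were lower and 2 higher, against 7.16% and 9.70%.

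The surface list holds genes of the mature colonocyte surface. Of its 31 measured genes, 12 were highest in cluster 4 (7.01% of all genes were), 10 were at least 2-fold over cluster 1 (2.12%) and 0 below, and 4 were over (2.98%) and 1 below (1.57%) cluster 8. Of the 28 that reach 1 per 10000 in any cluster, 12 were highest in cluster 4, against 9.8% of genes at that level. At 1 or more per 10000, 10 of 26 were over cluster 1, against 10.1%. Of 26 compared with cluster 8 at that level, 2 were over it, a share under the 9.70% of all genes at that level. Lypd8, which keeps flagellated bacteria off the epithelium, was at 485, 223 and 369 in clusters 4, 1 and 8. The brush border cadherins Cdhr5 and Cdhr2 were at 15.1 and 5.49 in cluster 4, 13.6 and 5.69 in cluster 8, and 6.00 and 1.70 in cluster 1. Ceacam20 was at 4.598, 1.54 and 4.53 in clusters 4, 1 and 8, and Muc3, a membrane mucin, was the exception below cluster 8, at 17.5 against 45.0. Among junction genes, Cldn7 was at 26.8, 20.2 and 24.2. Of 23 such genes 3 were over cluster 8 and 0 below. Of the 16 at 1 or more per 10000, 2 were over it, near the background of 9.70%.

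**Figure D3:**
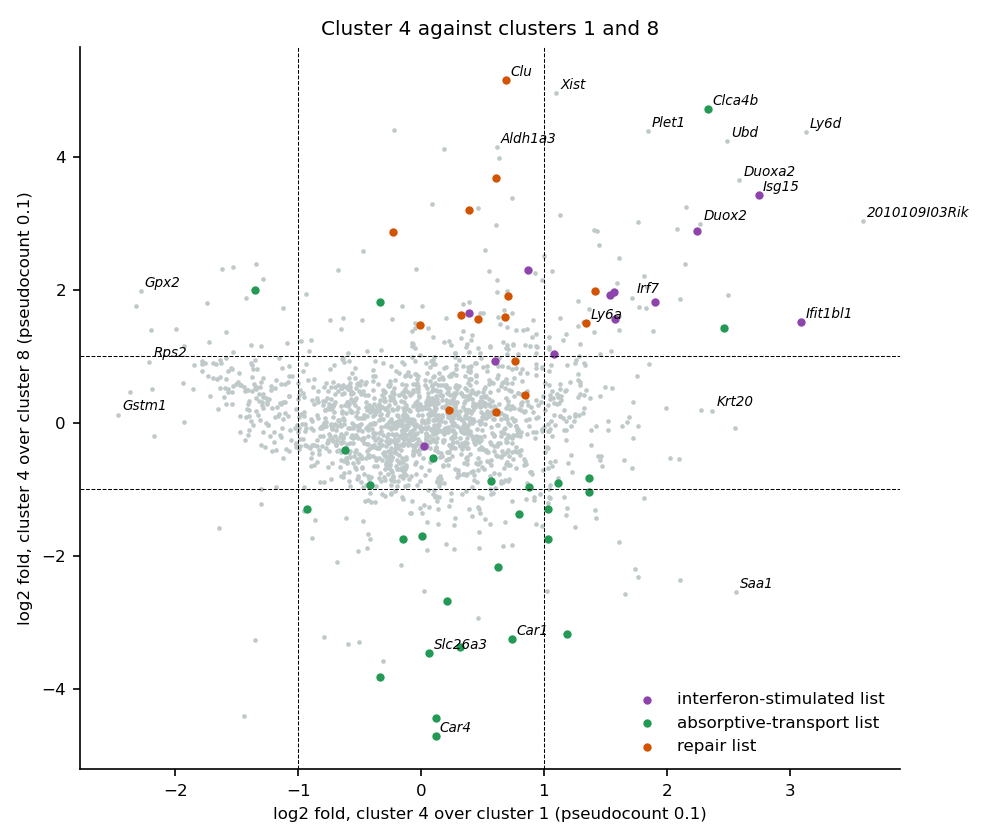
Each point is a gene at 1 or more per 10000 in cluster 4, 1 or 8, at its log2 fold of cluster 4 over cluster 1 (x axis) and over cluster 8 (y axis); dashed lines mark 2-fold. Interferon-stimulated genes (purple) lie mostly to the upper right, transport genes (green) mostly low, and Clu (35.6-fold over cluster 8, 1.62-fold over cluster 1) at the top near the middle.

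A finer view comes from the 149 genes at least 4-fold apart between clusters 1 and 8. On a log2 scale where 0 is the level of cluster 1 and 1 that of cluster 8, the median position of cluster 4 was 0.48, with quartiles of 0.27 and 0.66. Below 0 were 17 genes, from 0 to the middle 62, from the middle to 1 68, and above 1 only 2 (Krt20 and Tmem37). The positions were not alike among genes. Of the 63 genes higher in cluster 8 the median was 0.43, with Car4 at 0.02, Slc26a3 at 0.02, Saa1 at 0.50 and Prss30 at 0.97. Of the 86 genes higher in cluster 1 the median was 0.60, and 40 of these were ribosomal protein genes, all between 0.49 and 0.81. Clu, Krt7, Aldh1a3 and Xist lay below 0, beyond the level of cluster 1. Genes are not independent replicates of this position.

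**Figure D4:**
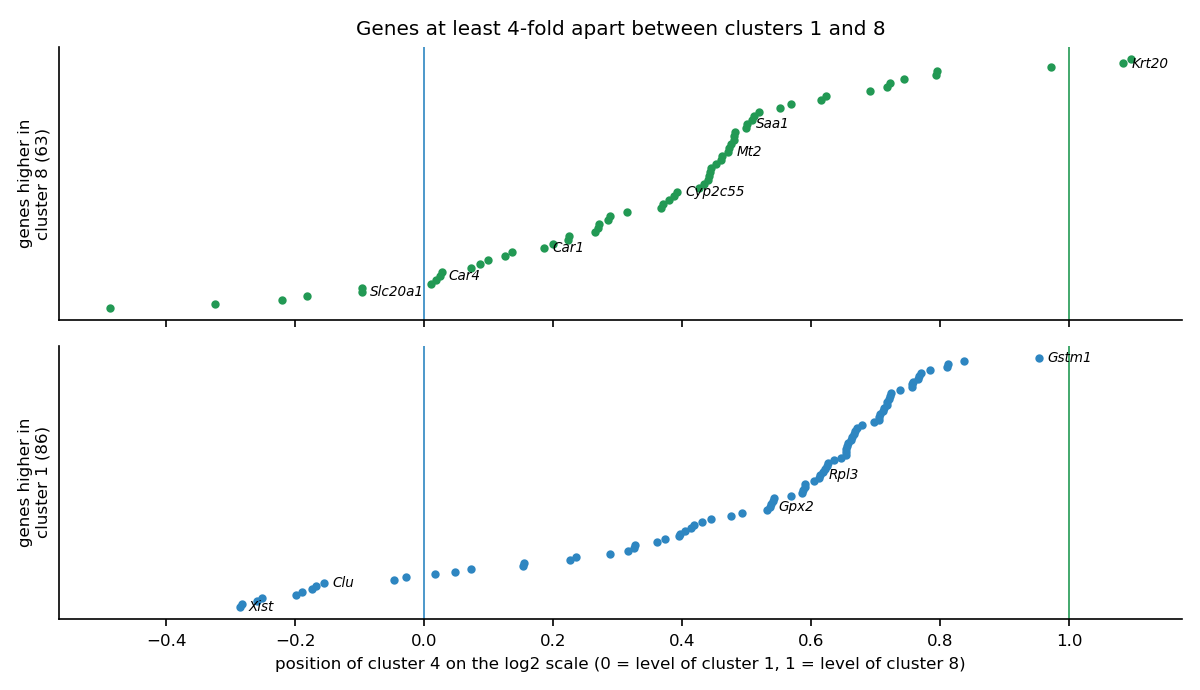
Position of cluster 4 between clusters 1 (0, blue line) and 8 (1, green line) on the log2 scale (x axis) for the 149 genes at least 4-fold apart between them; each point is a gene, ordered by position, with genes higher in cluster 8 above (63) and genes higher in cluster 1 below (86). Points spread over the whole interval, with Car4 near 0 (0.02), Saa1 in the middle (0.50) and Krt20 past 1 (1.08).

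At least 2-fold higher than both neighbours were 55 of 1839 genes (2.99%), and 5 were at least 2-fold lower than both. Genes outside the range of the 2 neighbours by less than that, such as Clu, are not in these counts. The 29 leading genes are among the 55 by their definition. The others include Dgat2, the enzyme of triglyceride synthesis, at 2.83, 0.732 and 0.537 in clusters 4, 1 and 8, Slc16a3, the lactate exporter, at 1.33, 0.373 and 0.235, and Prom1 at 3.95, 1.75 and 1.26. The 5 lower genes were Akr1c19, Cyp2d12, Hao2, Mgst1 and Ppa1, of which Mgst1, a glutathione transferase, was at 0.334, 1.01 and 4.05. These lower genes and the 3 others were picked after their values were seen.

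Other lists were mixed. Among 34 genes of glycolysis and the response to low oxygen, 11 were at least 2-fold over cluster 1 (2.12% of all genes) and 0 below, and 7 over (2.98%) and 1 below (1.57%) cluster 8. At 1 or more per 10000 these were 5 of 21 over cluster 1 and 4 of 22 over cluster 8, against 10.1% and 9.70%. The glucose transporter Slc2a1 was at 2.14, 0.661 and 1.46, the carbonic anhydrase Car9 at 1.91, 1.03 and 0.667, and Bnip3 at 1.13, 0.418 and 0.562. Glycolytic enzymes of high abundance were nearly level, such as Gapdh at 24.6, 20.4 and 20.4. Of 35 cell death genes, 16 were highest in cluster 4, against 7.01% of all genes. At least 2-fold higher than in cluster 1 were 6 and lower 2 (2.12% and 2.38%), and 9 were higher and 1 lower than in cluster 8 (2.98% and 1.57%). At 1 or more per 10000, 3 of 13 were higher and 1 lower than in cluster 1 (10.1% and 9.79%). Of 14 compared with cluster 8, 5 were higher and 1 lower (9.70% and 7.16%). Their sum, 40.7, was below the 41.6 of cluster 3. Named members were the gasdermin Gsdmd at 4.10, 1.88 and 3.80, the necroptosis sensor Zbp1 at 1.63, 0.480 and 0.489, and Casp8 at 1.41, 0.780 and 0.753, while Pycard was at 5.13 against 11.3 in cluster 1. Zbp1 and Xaf1 of that list also belong to the interferon list.

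Stress and inflammation lists gave other counts against cluster 8 than against the mean of all other clusters. Of 29 targets of p53, the factor that responds to DNA damage, 1 was at least 2-fold over cluster 1 and 2 below (2.12% and 2.38% of all genes). Against cluster 8, 4 were over and 0 below (2.98% and 1.57%), and against the mean 4 were over and 5 below (3.26% and 7.29%). At 1 or more per 10000, 1 of 7 was over cluster 1 and 3 of 7 over cluster 8 (10.1% and 9.70%). Of the 15 p53 targets that reach 1 per 10000 in any cluster, 4 were over the mean and 4 below. Among all genes at that level 9.92% were over and 27.6% below, so the share below was near the background. The p53 target Cdkn1a was at 6.11, 2.90 and 6.52. Of 35 inflammatory signalling genes, 6 were at least 2-fold over cluster 1 (2.12% of all genes) and 9 over cluster 8 (2.98%), with 0 below either. At 1 or more per 10000 these were only 2 of 5 and 3 of 6, against 10.1% and 9.70% of genes. Against the average of the rest, 2 were over and 13 below (3.26% and 7.29%). Of the 24 that reach 1 per 10000 in any cluster, 1 was over and 12 below, against 9.92% and 27.6%. The list summed to 21.3 in cluster 4 and 726 in cluster 5, with Il1b at 0.135 and Cxcl2 at 0.633 against 241 and 343 in cluster 5. Cxcl16 (1.06, 0.224 and 0.248) and Cxcl5 (0.642, 0.134 and 0.158) were chemokines higher than in both neighbours. Of 24 immediate early genes, 1 was over cluster 1 (2.12% of all genes) and 9 over cluster 8 (2.98%), with 0 below either. At 1 or more per 10000 these were 1 of 16 and 7 of 15, against 10.1% and 9.70%. Against the mean of the others, 0 were over and 7 below (3.26% and 7.29%). Of the 20 that reach 1 per 10000 in any cluster, 0 were over and 6 below. Among all genes at that level 9.92% were over and 27.6% below, so the share below was near the background. Of 28 squamous epithelium genes, 4 were over cluster 1 and 0 below (2.12% and 2.38% of all genes). Against cluster 8, 6 were over and 5 below (2.98% and 1.57%). At 1 or more per 10000, 4 of 6 were over cluster 1 (10.1% of genes). Of 6 compared with cluster 8, 3 were over and 2 below (9.70% and 7.16%). Sfn was at 12.04, 7.51 and 3.64, Sprr1a at 1.71, 0.563 and 0.184 and Tgm3 at 6.12, 2.96 and 35.8.

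Antimicrobial, detoxifying and metabolic genes were split by gene. The antimicrobial list summed to 587, of which Lypd8 gave 485. Pglyrp1, which binds bacterial peptidoglycan, was at 35.4, 21.7 and 8.93, the highest of the 12 clusters, and so was Pigr, the receptor that carries antibodies across the epithelium, at 28.8, 22.3 and 13.05. Slpi, a protease inhibitor, was lower than in cluster 1, at 1.46 against 4.43. Of 37 detoxification genes, 10 were at least 2-fold lower than in cluster 8 and 3 higher (1.57% and 2.98% of all genes), and 5 were higher and 5 lower than in cluster 1 (2.12% and 2.38%). Of these, the peroxiredoxin Prdx6 was at 80.2, 38.7 and 176, and the metallothionein Mt1 at 10.04, 3.21 and 35.2, both between the neighbours. Of 26 genes of fatty acid use and ketone production, 0 were over and 1 below cluster 1 (2.12% and 2.38%). Acadl was level at 1.41, 1.40 and 1.40. Of 42 cytoskeleton and adhesion genes, 11 were over cluster 8 and 0 below (2.98% and 1.57% of all genes). Compared with cluster 1, 3 were over and 1 below (2.12% and 2.38%). At 1 or more per 10000, 7 of 31 were over cluster 8, against 9.70%, and 3 of 31 over cluster 1, near the background of 10.1%. The actin-capping gene Capg was at 7.46, 5.17 and 1.15.

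**Figure D5:**
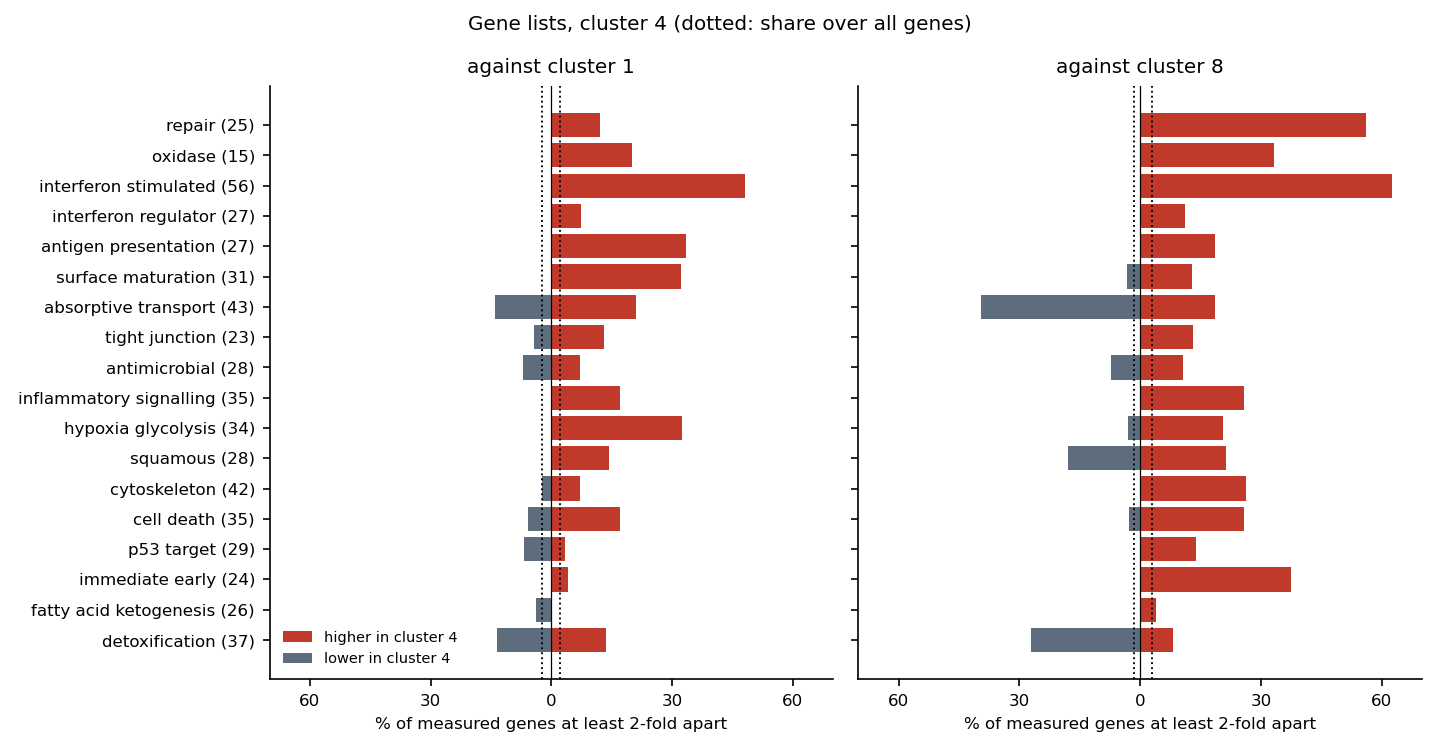
Share of each list's measured genes (number in brackets) that were at least 2-fold higher (red, to the right) or lower (grey, to the left) in cluster 4 than in cluster 1 (left panel) and cluster 8 (right panel); dotted lines give the share over all genes. The interferon-stimulated list has 27 of 56 higher than cluster 1 and 35 of 56 higher than cluster 8, and the transport list 17 of 43 lower than cluster 8.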

How the data were processed

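The authors deposited 1 table of 17044 genes by 12 clusters, holding mean UMIs per 10000 on a linear scale, as read from the values: each column sums to 10000. Cell Ranger 3.1.0, Seurat 2.3 and the build mm10 (GRCm38) are named in the submitters' processing notes. The sources used here do not give cell filters, doublet treatment, clustering settings or the handling of multi-mapping reads. The labels call both samples by 1 code, and do not say whether the libraries are separate animals.

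With Python 3.11.15, numpy 2.4.6, pandas 2.3.3 and scipy 1.17.1, cell numbers and UMI totals were recovered from values where 10000 divided by the average is whole within a relative tolerance of 1e-12, and a total needed 2 genes. Totals were found for 2618 of 3082 cells. Approximate UMIs behind a level used the harmonic mean of totals, with cells without a total set to the lowest one found. On simulated data for all 12 clusters and 17044 genes, cell numbers were recovered in 12, and 100.0% of 2469 totals were true. The harmonic mean was 0.546 times its true value in cluster 4, 1.26 times in cluster 1 and 0.885 times in cluster 8, so intervals of cluster 1 are somewhat narrow. In a simulated comparison of clusters 4 and 1, 50 of 50 genes raised 4-fold were called, and 0 of 1242 unchanged ones. Of 50 genes lowered 4-fold, 49 were called lower. Of 50 genes raised 2-fold, 0 were called. Their expected fold lay under the 2-fold limit, because the raised profile was rescaled to the same total and the pseudocount was added. That outcome therefore followed from the setup and does not measure how many true 2-fold differences are found.

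Folds used a pseudocount of 0.1 per 10000, which understates those of low genes. Counts of genes against clusters 1 or 8 used a level of 1 in either, and list counts all measured genes. The shares of all genes beside list counts include genes below that level, so they are lower than the shares at that level. Genes named were the 7 markers, the 25 with the largest fold over the next cluster, the 10 largest folds when clusters 5 and 10 are set aside, the 10 highest and lowest against clusters 1, 8 and the mean, the 10 most abundant, the sex-linked genes, and of each list the 6 highest and the 3 highest and 3 lowest by fold. Others were named after their values were seen: Stat2, Irf9, Lgr5, Csf3r, Retnlg, Nox1, Noxa1, Itgb4, Itga3, Itga6, Cd74, Anxa1, Anxa8, Areg, Hbegf, Krt7, Aqp8, Cdhr2, Muc3, Tmem37, Dgat2, Akr1c19, Hao2, Ppa1, Slc2a1, Casp8, Xaf1 and Cxcl5. The members and lists were chosen with earlier results of these data known. Gene positions are from GENCODE M21 and promoters from RefSeq, both on GRCm38. Figures were drawn with matplotlib 3.10.9. Some genes are not reported here.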

Additional observations from a re-analysis of the deposited data

How the results depend on the processing

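Each result was recomputed with 1 choice changed. The counts below are, in order, leading genes (29), genes higher than in cluster 1 (171), lower than in cluster 1 (165), higher than in cluster 8 (160), lower than in cluster 8 (118) and higher than in both (55). With a pseudocount of 1 they were 11, 54, 89, 75, 58 and 21. With a level minimum of 2 they were 14, 102, 109, 97, 77 and 28, with none 47, 361, 406, 508, 268 and 134, and with 4-fold in place of 2-fold 8, 22, 8, 46, 25 and 11. A minimum of 0.5 gave 269 higher than in cluster 8 and 90 higher than in both. Rescaling to the median ratio gave 263 higher and 103 lower than in cluster 1, and 24 of the 29 leading genes remained.

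Of the lists, a pseudocount of 1 left 6 interferon-stimulated genes over the mean of the others (35) and 3 over cluster 1 (27), 9 repair genes over cluster 8 (14), and over the mean 3 junction genes (11), 1 low-oxygen gene (9) and 2 cell death genes (10). At 4-fold these were 10, 5, 5, 0, 1 and 2, with 4 repair genes (9) and 4 surface genes (15) over the mean, 1 surface gene over cluster 1 (10) and 9 transport genes under cluster 8 (17). Without clusters 5, 6 and 10, 7 junction genes were over the mean. The smaller counts at a higher minimum or fold follow from their construction; for the rest the cause was not tested. A pseudocount of 0.01, leaving out mitochondrial and ribosomal protein genes and Malat1, and leaving out genes seen in 1 cell moved none of these counts by over 1.5 times. The median position between clusters 1 and 8, 0.48, lay between 0.39 and 0.52 under the alternatives run. Of 3324 recomputed folds of named genes against clusters 1 and 8, 260 moved by 1.5-fold or more and 3064 by less. None of the folds that were 2-fold or more changed direction. Of the smaller ones, 61 changed sign, all within 0.265 log2 units of 0, when the averages were rescaled or when mitochondrial and ribosomal protein genes and Malat1 were left out, among them Car4, Cyba and Actg1 against cluster 1 and Cdkn1a against cluster 8. No paired analysis was possible because the deposited columns do not separate the libraries, and leaving out each library was not run for the same reason. Precision is limited by 324 cells of uneven depth, and differences between animals or libraries cannot be seen in pooled averages.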

Other observations

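Xist, the RNA that silences 1 X chromosome in female cells, was at 2.99 per 10000 in cluster 4 (2.63 to 3.39), 1.34 in cluster 1, 2.68 in cluster 6 and 2.10 in cluster 7. It was listed at 0 in cluster 8, and stood at 0.0197 in cluster 3 and 0.0223 in cluster 9. The Y-linked genes were found in all 12 clusters: their sum was 0.839 in cluster 4, 0.844 in cluster 1, 0.967 in cluster 8 and 0.580 in cluster 7. Averages cannot show whether the same cells carry both, and the labels give no sex.

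Among genes of position along the gut, Hoxd11 was at 1.06 against 0.506 in cluster 1 and 0.607 in cluster 8, and Hoxd10 at 0.852 against 0.307 and 0.213. Hoxb13, which marks the hindmost gut, was at 4.15, below cluster 1 (4.74) and cluster 8 (7.72). Of the 16 genes measured, 1 (Hoxd10) was at least 2-fold over cluster 1 and 0 below, and 1 was over and 1 below cluster 8, against 2.12% and 2.38%, and 2.98% and 1.57%, of all genes.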
